A study of Mus musculus with 12 samples.

Results

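Myc-CaP cells left without added cytokine (Ctrl) were compared with Myc-CaP cells given the lower of the study's doses of interferon gamma (IFN200). The members were chosen by the sample titles alone: 2 IFN200 libraries and 2 Ctrl libraries, 4 of the 12 libraries in the series. Myc-CaP is an established prostate cancer line from male FVB/NJ mice that carry a Myc transgene under a prostate-specific, androgen-driven promoter, so the libraries describe 1 line in culture. Cells were cultured for 48 h with 200 pg of interferon gamma or with none, and polyadenylated RNA was sequenced. Doses are given per millilitre of medium in the methods. The groups set beside them were 2000 pg of interferon gamma (IFN2000), 2 µM oxaliplatin (Oxali), a platinum chemotherapy drug, and oxaliplatin with 200 pg of interferon gamma (Combo200), each of 2 libraries and also at 48 h. Oxaliplatin with 2000 pg of interferon gamma (Combo2000), also 2 libraries at 48 h, entered the main fit but none of the comparisons. Nothing in the labels says whether the replicates came from separate cultures, so p-values measure only the spread between these libraries, which may be technical.

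The agent label of several libraries goes against their title. Libraries titled 200 pg carry the agent label of oxaliplatin, those titled 2000 pg carry that of 200 pg, and those titled oxaliplatin carry that of 2000 pg. Titles were used. Over 18 tested targets of p53, the transcription factor that DNA damage activates, the mean log2 ratio to Ctrl was 0.01 and 0.02 in the IFN200 libraries, against 0.37 and 0.34 in the libraries titled oxaliplatin. Over 22 genes of MHC class I antigen processing it was 0.55 and 0.50 in IFN200 and 1.32 and 1.18 in IFN2000. These values follow the titles and not the agent labels.

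Interferon gamma binds a receptor of the chains Ifngr1 and Ifngr2, whose kinases Jak1 and Jak2 start the signal. The signal reaches the interferon gamma activated site, GAS, in the promoters of early target genes, among them the transcription factor Irf1, which binds interferon-stimulated response elements, ISRE. In tumour cells the pathway is known for raising the immunoproteasome, the peptide transporter and the MHC class I molecules that show peptides to cytotoxic T cells, and for GTPases that attack intracellular microbes.

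The 12 libraries held 18749975 to 25931516 counted reads, and the 4 compared here held 18749975 to 24058765. A count of 0 in a Ctrl library allows up to 3 counts, which is 0.152 to 0.167 counts-per-million (CPM), counting error only. The 2 Ctrl libraries differed by a chi-square per degree of freedom of 1.74 over genes and the 2 IFN200 libraries by 2.43, so no library repeats another. Among genes that mark the line, Myc, Krt8 and Hoxb13 were counted in every library (Myc 2268 to 3835 reads), whereas Epcam held 0 reads in all 12 and Krt18 and Cdh1 held 0 to 6.

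IFN200 replicate 1 carried reads of heart muscle genes. The 25 heart muscle markers summed to 353 reads there, from 19 of the 25 genes, against 33 and 38 in Ctrl and 41 in IFN200 replicate 2. The cardiac actin Actc1 gave 63 reads in that library and 0 in the other 3 compared here, the cardiac myosin chains Myh7 and Myh6 gave 58 and 28 against 0 to 1, and Myl2, Myl3 and Mybpc3 gave 22, 22 and 21 against 0. In the 6 libraries with oxaliplatin the markers summed to 123 to 164 reads, of which Tnnt2 gave 68 to 125. Among the remaining libraries, IFN2000 replicate 2 held 550 reads of T cell markers, with 175 of Gzmb and 117 of Ifng, against 9 to 86 in every other library.

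**Figure D1:**
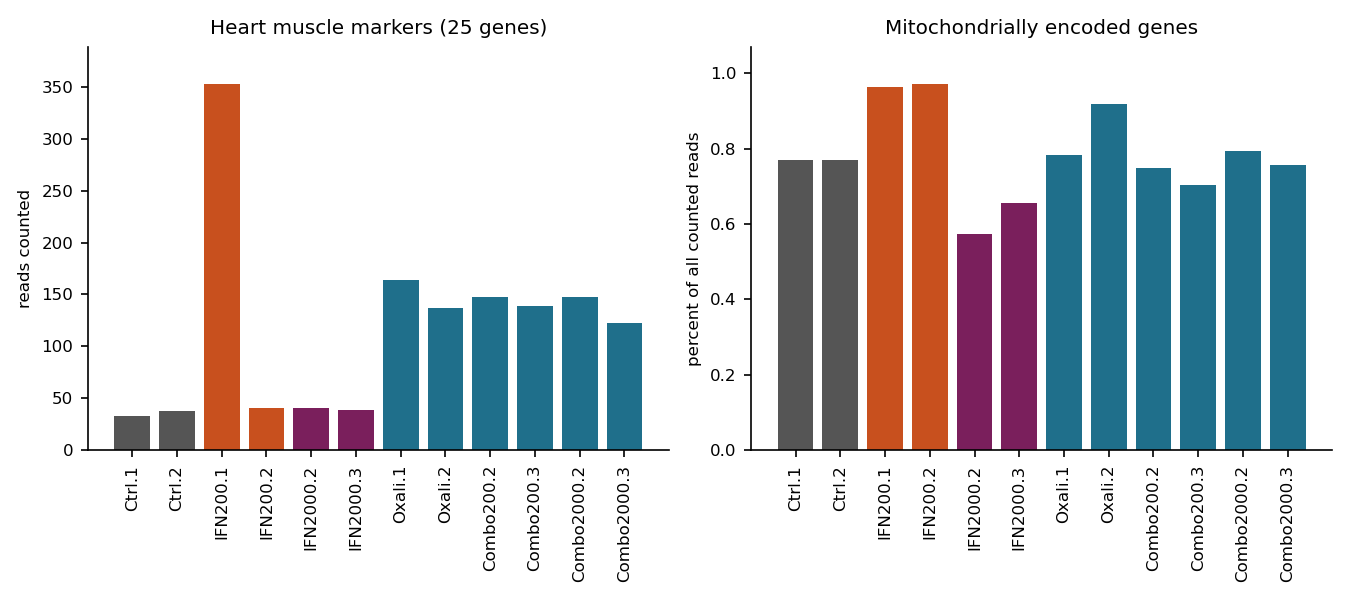
Left, reads counted on 25 heart muscle markers in each of the 12 libraries (bars from 0); right, percent of all counted reads that fell on mitochondrially encoded genes. IFN200 replicate 1 stands at 353 heart marker reads, and both IFN200 libraries stand above both Ctrl libraries in mitochondrial percent.

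The low dose raised a small set of genes, most of them for class I antigen processing and for interferon-inducible GTPases. Of 13177 genes tested, 15 were called higher in IFN200 than in Ctrl (0.114%) and 0 lower, where called means an adjusted p under 0.05 in edgeR's quasi-likelihood test with Benjamini-Hochberg adjustment. At an unadjusted p under 0.05 there were 363 genes higher and 438 lower, and DESeq2's Wald test called 13 genes, 12 of these 15 and, lower, Ftl1. Corrected for transcript length and GC content, the edgeR fit called 27 genes higher and 6 lower. In all 15 called genes both IFN200 libraries stood above both Ctrl libraries, an order that 2475 of all tested genes showed (18.8%). The change was at least 2-fold in 10 of the 15 and under 1.5-fold in 4. On chromosome 17 lie 5 of the called genes, with 4 on chromosome 11, 3 on chromosome 3, and 1 each on chromosomes 13 and 16 and the mitochondrial chromosome. Several of them are neighbours, and these counts were not set against the genes tested on each chromosome. With 2 libraries against 2, an exact two-sided permutation test of a single gene cannot go below p = 0.333. A call thus depends on the variance that the model shares between genes and over all 6 groups. Replicates of the groups outside this comparison differed by a chi-square per degree of freedom of 1.65 (Combo200), 3.26 (Combo2000), 5.06 (IFN2000) and 8.39 (Oxali). With only Ctrl and IFN200 in the fit, edgeR called 34 genes higher and 14 lower.

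**Figure D2:**
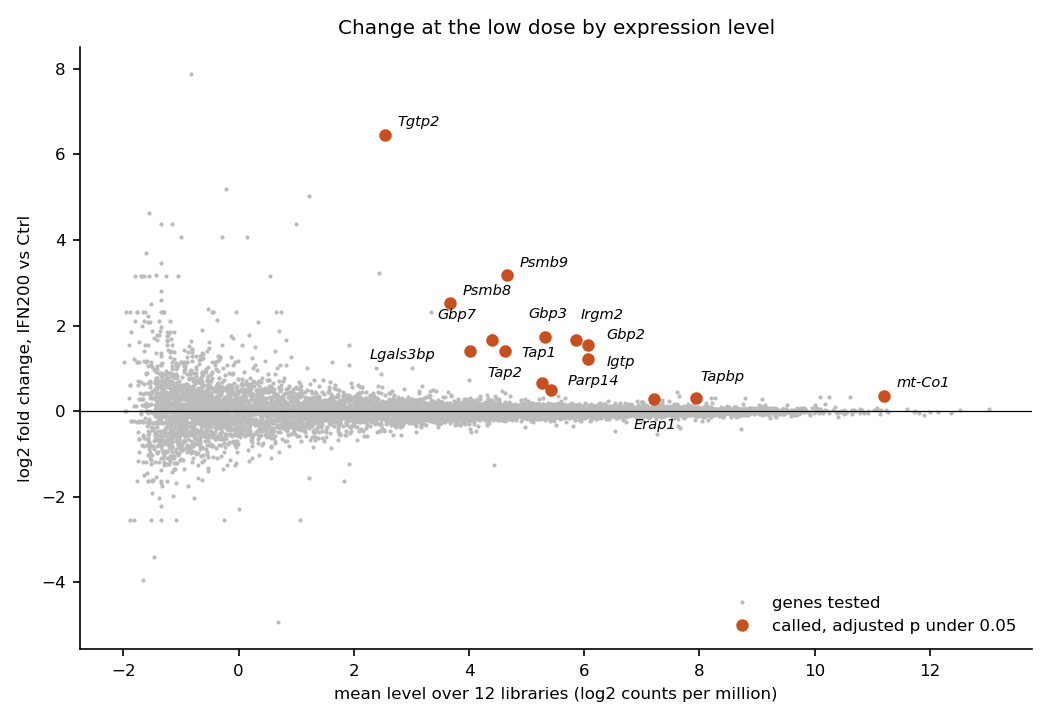
Log2 fold change of IFN200 against Ctrl (vertical axis) against the mean level over the 12 libraries in log2 CPM (horizontal axis) for the 13177 genes tested; filled points are the 15 called genes. The called genes lie above 0, from 0.27 (Erap1) to 6.46 (Tgtp2), and the highest grey point is the heart gene Myh7 at 7.87, with 58 reads in IFN200 replicate 1 and 0 to 1 in the other 3 libraries compared.

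The libraries average over many cells, so a strong rise in some cells and a weak rise in every cell cannot be told apart. Psmb9, the gene with the smallest p, encodes an immunoproteasome subunit that replaces a constitutive one and changes which peptides are cut. Its level was 0.389 and 0.203 CPM in the Ctrl libraries (7 and 4 reads) and 2.56 and 2.83 CPM in the IFN200 libraries (59 and 64 reads). Both treated libraries were far above both controls, and the log2 fold change was 3.18 (SE 0.295, edgeR adjusted p = 2.07e-05, 95% interval 2.56 to 3.80). Psmb8, another immunoproteasome subunit, went from 0.223 and 0.203 CPM to 1.43 and 1.06 CPM (4 and 4 reads to 33 and 24), a log2 fold change of 2.53 (SE 0.414, edgeR adjusted p = 0.01). Psmb9 and Psmb8 were thus read from a handful of counts in the controls.

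The transporter that carries peptides into the endoplasmic reticulum is made of Tap1 and Tap2. Tap1 stood at 1.00 and 1.17 CPM in Ctrl and at 2.65 and 3.14 CPM in IFN200, a log2 fold change of 1.41 (SE 0.231, edgeR adjusted p = 0.01). For Tap2 the values were 4.23 and 5.47 CPM against 7.86 and 7.42 CPM, a log2 fold change of 0.65 (SE 0.125, edgeR adjusted p = 0.0485). Tap2 was the called gene nearest the threshold. Psmb9, Tap1, Psmb8 and Tap2 are neighbours at chr17:34181987-34216321 (GRCm38), in the MHC, and the 2 other annotated genes in that window, Gm20496 and Gm15821, held 0 reads in these 4 libraries. Psmb9 and Tap1 run on opposite strands, away from each other, and their annotated 5′ ends overlap by 212 bases.

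Tapbp, or tapasin, which bridges the transporter and the class I molecule, was read from far more counts. It had 89.4 and 85.6 CPM in Ctrl and 108 and 109 CPM in IFN200, a log2 fold change of 0.31 (SE 0.0406, edgeR adjusted p = 0.00122). Erap1, the aminopeptidase that trims peptides in the endoplasmic reticulum, had 76.6 and 75.5 CPM against 91.2 and 92.4 CPM, a log2 fold change of 0.27 (SE 0.0403, edgeR adjusted p = 0.00496). These were the smallest of the called changes, and in both genes the replicates of a group lay closer together than the groups. The annotated Tapbp shares 3422 bases with Zbtb22 on the same strand and Erap1 shares 834 with Cast on the other, so some reads may be assigned to either gene.

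**Figure D3:**
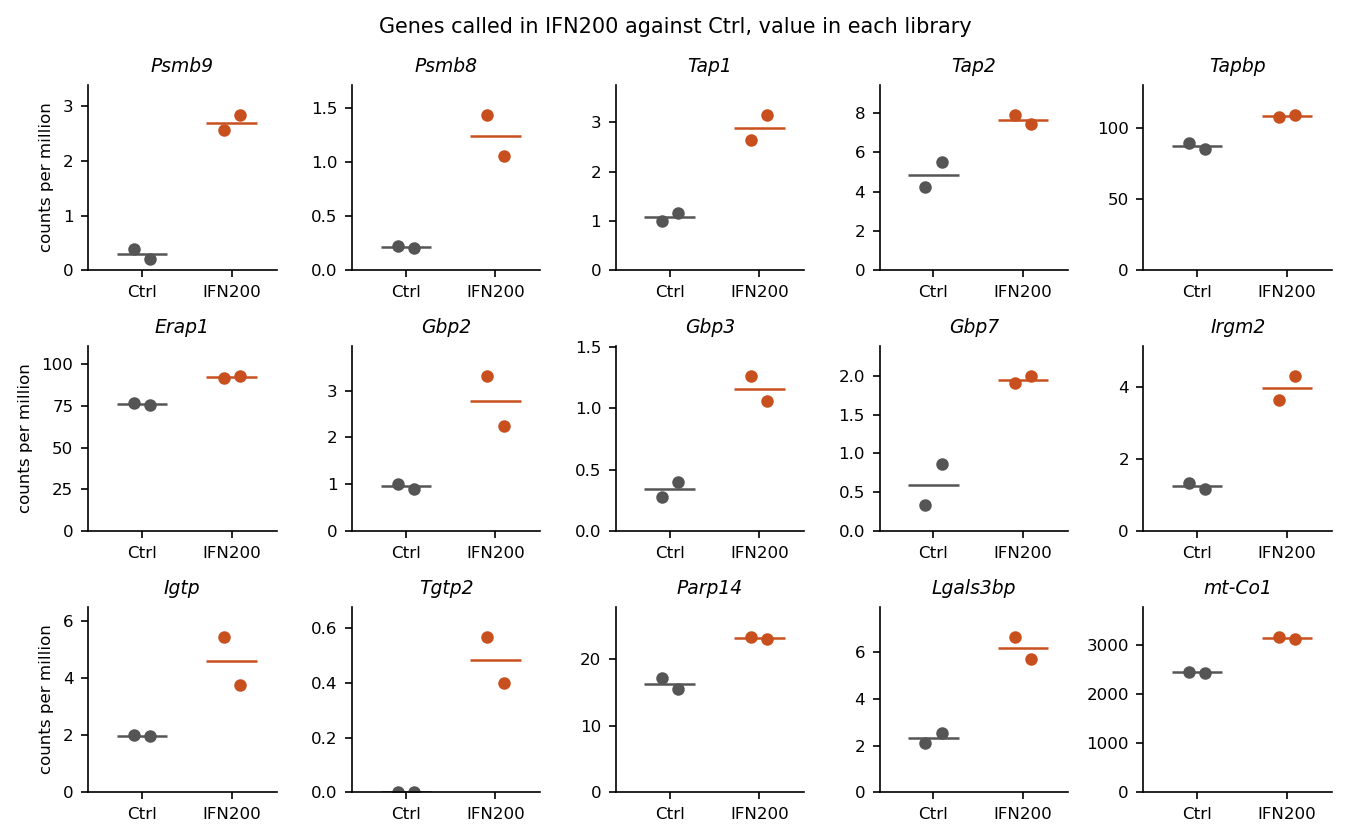
CPM of each of the 15 called genes in the Ctrl and IFN200 libraries (points, 1 per library; lines, group means; each vertical axis starts at 0 and has its own scale). In every panel both IFN200 points lie above both Ctrl points, with Tgtp2 at 0 in both Ctrl libraries.

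Of the 22 genes listed for class I processing and presentation, 6 were called higher (0.114% of all genes tested were) and 0 lower. In 18 of them both IFN200 libraries stood above both controls (81.8% of the list, against 18.8% of all genes tested). The median log2 fold change of the list was 0.19, against -0.0005 over all genes tested. The class I molecules themselves were not called. The light chain B2m stood at 735 and 707 CPM against 810 and 779 CPM (log2 fold change 0.14, 95% interval 0.06 to 0.22, edgeR adjusted p = 0.318). For the heavy chains H2-K1 and H2-D1 the log2 fold changes were 0.08 (95% interval -0.02 to 0.18) and 0.09 (95% interval 0.01 to 0.18), with edgeR adjusted p of 0.846 and 0.799. Psmb10, the remaining catalytic immunoproteasome subunit, had 29.5 and 29.7 CPM against 34.2 and 35.6 CPM, and the proteasome activator subunits Psme1 and Psme2 had log2 fold changes of 0.20 and 0.18; none of these was called (edgeR adjusted p 0.349, 0.194 and 0.232). Nlrc5, the transactivator of class I genes, was counted at 2 and 0 reads in Ctrl and 16 and 9 reads in IFN200, a ratio of 10.3 with a counting interval of 2.57 to 89.9, and did not pass (edgeR adjusted p = 0.267). The 8 constitutive proteasome subunits held 0 calls by edgeR, with 1 (Psmb4, -0.20) lower at an unadjusted p under 0.05, and a median of 0.01, with Psmb5, which Psmb8 replaces, at 0.00 (95% interval -0.17 to 0.18).

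Guanylate binding proteins are GTPases that coat vacuoles and microbes in cells treated with interferon gamma. Of 11 genes listed, all passed the filter on low counts, which takes in all groups, and 3 were called higher (0.114% of all genes tested were). With only Ctrl and IFN200 in the fit, 3 of the 11 passed the filter. Gbp2 went from 1.00 and 0.912 CPM to 3.30 and 2.25 CPM, a log2 fold change of 1.54 (SE 0.249, edgeR adjusted p = 0.01). In Gbp3 the levels were 0.278 and 0.405 CPM against 1.26 and 1.06 CPM, a log2 fold change of 1.74 (SE 0.317, edgeR adjusted p = 0.0263). Gbp7 had 0.334 and 0.861 CPM against 1.91 and 1.99 CPM, a log2 fold change of 1.67 (SE 0.291, edgeR adjusted p = 0.0176). Its Ctrl libraries lay apart, and the value was 2.53 without Ctrl replicate 2 (edgeR adjusted p = 0.0206) and 1.17 without Ctrl replicate 1 (edgeR adjusted p = 0.632). The 3 called members are neighbours on chromosome 3, at chr3:142530342-142638008, and Gbp2b, which lies between Gbp3 and Gbp2, held 2 reads in Ctrl and 1 in IFN200. The other 8 members had 0 to 2 reads in each of the 4 libraries, so a small change in them was not detectable at this depth. The members are close paralogs, and how reads that fit several of them were assigned is not given in the sources used here.

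Immunity related GTPases act on the membranes around intracellular parasites and bacteria. Of 12 listed genes, 3 were called higher (0.114% of all genes tested were) and 0 lower, and 8 had both IFN200 libraries above both controls (66.7%, against 18.8% of all genes tested). All 12 passed the filter on low counts, which takes in all groups. With only Ctrl and IFN200 in the fit, 6 of the 12 passed it. The other members were thus tested because of reads in other groups. Irgm2 stood at 1.34 and 1.17 CPM in Ctrl and 3.65 and 4.29 CPM in IFN200, a log2 fold change of 1.66 (SE 0.208, edgeR adjusted p = 0.000741). Igtp had 2.00 and 1.98 CPM against 5.43 and 3.76 CPM, a log2 fold change of 1.21 (SE 0.181, edgeR adjusted p = 0.00518). The 2 IFN200 libraries of Igtp lay further apart than its controls, but both were above them. Tgtp2 held 0 reads in both Ctrl libraries and 13 and 9 reads in IFN200 (0.564 and 0.398 CPM). Against the 3 counts that a 0 allows in each Ctrl library it was at least 3.02-fold higher (edgeR adjusted p = 0.0134), and its fitted log2 fold change of 6.46 depends on the prior count. Tgtp2 was tested because of its reads in the other groups. With only Ctrl and IFN200 in the fit, it did not pass the filter on low counts and had no test.

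Tgtp1, the near-identical copy of Tgtp2, went from 8.35 and 7.20 CPM to 11.0 and 10.3 CPM and was not called (log2 fold change 0.46, edgeR adjusted p = 0.194). Reads can be shared between these copies, Tgtp2 lies wholly inside the annotated span of Olfr56 on the other strand (7013 bases), and the annotated Irgm2 and Igtp share 7974 bases of the same strand, so the split of reads within both pairs is uncertain. Ifi47 had 14 and 12 reads against 37 and 39 (log2 fold change 1.26, edgeR adjusted p = 0.334), and Irgm1 had 61.4 and 58.6 CPM against 65.0 and 63.4 CPM (log2 fold change 0.10, edgeR adjusted p = 0.816). The median of the list was 0.77 on the fitted log2 scale and 0.32 with the 5 members whose Ctrl libraries were at or under the floor set to their bound.

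The promoters of the called GTPases and of Psmb8 are shown because the motifs of the pathway stand at similar places in several of them. RefSeq windows from 250 bases before to 50 after the transcription start were found for 12 of the 15 called genes (GRCm38; 13 windows, since Gbp3 has more than 1); Parp14, Tap2 and mt-Co1 had no entry. GAS was searched as TTCNNNGAA and the core of ISRE as GAAANNGAAA, both on both strands, and no GAS match overlapped an ISRE match in these genes. GAS letters stood in 5 of the 12 genes and ISRE letters in 7, 4 genes had both, and 4 had neither. Over all 32851 windows of this length 8.30% held GAS letters, 3.44% held ISRE letters and 0.454% held both. Below, each line gives 150 bases from 120 before the start to 30 after it, 5′ to 3′ on the gene's strand, with motif letters in capitals. The windows are Irgm2 at chr11:58214857-58215006 (plus strand), Igtp at chr11:58199436-58199585 (plus), Tgtp2 at chr11:49064183-49064332 (minus), Gbp7 at chr3:142530216-142530365 (plus), Gbp3 at chr3:142559924-142560073 (plus), Gbp2 at chr3:142620543-142620692 (plus), Psmb8 at chr17:34198075-34198224 (plus) and Psmb9 at chr17:34187301-34187450 (minus).
Irgm2: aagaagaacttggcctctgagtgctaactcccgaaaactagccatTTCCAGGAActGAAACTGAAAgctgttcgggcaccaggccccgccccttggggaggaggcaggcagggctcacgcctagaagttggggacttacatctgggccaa
Igtp: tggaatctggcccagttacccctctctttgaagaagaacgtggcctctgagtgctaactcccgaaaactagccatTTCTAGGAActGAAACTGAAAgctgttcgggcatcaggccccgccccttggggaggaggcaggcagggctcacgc
Tgtp2: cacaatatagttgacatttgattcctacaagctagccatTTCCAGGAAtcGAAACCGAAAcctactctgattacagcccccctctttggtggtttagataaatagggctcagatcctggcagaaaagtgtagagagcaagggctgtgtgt
Gbp7: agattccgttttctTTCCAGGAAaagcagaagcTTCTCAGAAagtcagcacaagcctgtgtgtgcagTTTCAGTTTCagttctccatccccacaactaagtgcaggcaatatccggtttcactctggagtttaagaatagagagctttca
Gbp3: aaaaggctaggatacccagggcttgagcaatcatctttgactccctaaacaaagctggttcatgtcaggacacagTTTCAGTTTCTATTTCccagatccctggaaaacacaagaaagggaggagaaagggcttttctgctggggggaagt
Gbp2: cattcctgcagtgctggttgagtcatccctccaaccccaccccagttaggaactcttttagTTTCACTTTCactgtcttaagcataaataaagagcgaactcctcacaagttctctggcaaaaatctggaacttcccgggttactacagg
Psmb8: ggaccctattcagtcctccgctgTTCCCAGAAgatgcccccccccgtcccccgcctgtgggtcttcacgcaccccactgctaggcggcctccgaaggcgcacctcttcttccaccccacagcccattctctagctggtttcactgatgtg
Psmb9: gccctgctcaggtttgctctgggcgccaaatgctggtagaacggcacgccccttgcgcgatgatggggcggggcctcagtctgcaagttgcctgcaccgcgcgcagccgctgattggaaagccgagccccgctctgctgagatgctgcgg

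In Irgm2, Igtp and Tgtp2 the GAS letters were followed after 2 bases by the ISRE letters. The GAS match began 75 bases before the start in Irgm2, 45 in Igtp and 81 in Tgtp2. Over their best ungapped overlap of 270 bases the Irgm2 and Igtp windows were identical at 184 (68.1%), whereas Irgm2 and Tgtp2 were identical at 101 of 294 (34.4%). Gbp7 held GAS letters at 2 places and ISRE letters nearer the start, Gbp2 held ISRE letters 59 bases before the start, Gbp3 held 2 ISRE matches that overlap, and Psmb8 held GAS letters 97 bases before the start. Erap1 held ISRE letters that span its start. Psmb9, the gene with the smallest p, and Tap1, Tapbp and Lgals3bp held neither set of letters in these windows. The Psmb9 and Tap1 windows lie head to head and cover mostly the same bases, so they are not separate stretches. A match is a run of letters and not a measured binding site.

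Parp14 and Lgals3bp were the called genes outside these groups that are known to respond to interferons. Parp14, a mono-ADP-ribosyl transferase, had 17.1 and 15.5 CPM in Ctrl and 23.3 and 22.98 CPM in IFN200, a log2 fold change of 0.51 (SE 0.0788, edgeR adjusted p = 0.00724). It was the only call among 4 tested genes of the Parp and Dtx3l list (0.114% of all genes tested were called higher). Of the 4, 3 were higher at an unadjusted p under 0.05 by edgeR, Parp14 included. Parp9, its partner gene on the list, had a log2 fold change of 0.20 and an edgeR adjusted p of 0.324. Lgals3bp, a secreted glycoprotein that binds galectins, had 2.11 and 2.53 CPM against 6.64 and 5.70 CPM, a log2 fold change of 1.40 (SE 0.154, edgeR adjusted p = 0.000159), the second smallest p of all genes.

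The genes that carry the signal itself were not among the 15 calls at this dose, and the 1 gene that DESeq2 called outside the 15 was Ftl1. Of all genes tested 0.114% were called higher, so 0 calls in the short lists of this paragraph say little about them. Of 13 tested genes for receptors, JAK kinases and STAT factors, 0 were called in either direction by edgeR, and the median was 0.02. At an unadjusted p under 0.05, 2 of the 13 were higher, against 363 higher and 438 lower of all 13177 genes tested. Ifngr1 was at 34.7 and 37.4 CPM against 34.4 and 37.7 CPM, and its 95% interval ran from -0.12 to 0.12. Jak1 had an interval of -0.07 to 0.10. Irf1 came closer, at 38.6 and 37.0 CPM against 47.1 and 42.9 CPM (log2 fold change 0.25, 95% interval 0.14 to 0.36, edgeR adjusted p = 0.101). edgeR called Irf1 with the length and GC correction (adjusted p = 0.0111), with that correction and the replicate block (0.0188), with no filter on low counts (0.00527) and without IFN200 replicate 2 (0.0391). Irf9, a DNA-binding factor of the type I interferon response, had a log2 fold change of 0.36 (edgeR adjusted p = 0.445). Of 8 tested interferon regulatory factors, 0 were called by edgeR, and 2 were higher and 1 lower at an unadjusted p under 0.05. Of 10 negative regulators 0 were called, with 1 in each direction at an unadjusted p under 0.05, and Socs1, the feedback inhibitor of JAK kinases, held 21 and 25 reads in Ctrl and 13 and 22 in IFN200.

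Antiviral genes, which respond to type I interferon most strongly, held 0 calls among 26 tested by edgeR. Of all genes tested 0.114% were called higher, so 0 calls among 26 say little about the list. At an unadjusted p under 0.05 by edgeR, 7 of the 26 were higher and 0 lower. Of all 13177 genes tested, 363 were higher and 438 lower at that threshold. The median of the 26 was 0.13, and 10 had both IFN200 libraries above both controls (38.5%, against 18.8% of all genes tested). With only Ctrl and IFN200 in the fit, 16 genes of the list passed the filter on low counts. Ifitm3, which blocks virus entry, went from 6.95 and 6.69 CPM to 9.20 and 9.19 CPM (log2 fold change 0.43, edgeR adjusted p = 0.153), and the tether Bst2 had a log2 fold change of 0.19 (edgeR adjusted p = 0.318). Isg15, the ubiquitin-like modifier, stood at 160 and 159 reads against 192 and 229, and the groups overlapped after scaling. Mx1, Mx2, Ifih1, Cmpk2 and Ifi44 held 0 to 2 reads in each of the 4 libraries. At such counts a small change was not detectable.

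Genes of chemokines, checkpoint ligands and inflammation were also without a call by edgeR, 0 of 12 tested, with 2 higher at an unadjusted p under 0.05. As 0.114% of all genes tested were called higher, 0 calls in the short lists of this paragraph say little about them. Cd274, which encodes PD-L1, the ligand that restrains T cells, had 33 and 28 reads in Ctrl and 34 and 31 in IFN200, a log2 fold change of -0.18 with a 95% interval of -0.77 to 0.40. Cxcl9 and Cxcl11, chemokines that draw T cells, held 0 reads in all 4 libraries, and Cxcl10 held 1 to 4. Ido1, a tryptophan-degrading enzyme, had 66 and 71 reads against 107 and 99 (log2 fold change 0.31, edgeR adjusted p = 0.816). The MHC class II genes H2-Aa, H2-Ab1 and H2-Eb1 held 0 reads in all 4 libraries and their transactivator Ciita 0 to 1, and 0 of the 5 tested genes on the class II list were called by edgeR (1 was higher at an unadjusted p under 0.05). Lists outside the pathway held 0 calls by edgeR, with medians of 0.00 over 18 p53 targets (1 at an unadjusted p under 0.05), -0.01 over 20 MYC targets (3 at an unadjusted p under 0.05) and -0.01 over 15 NF-kB targets (1 at an unadjusted p under 0.05).

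**Figure D4:**
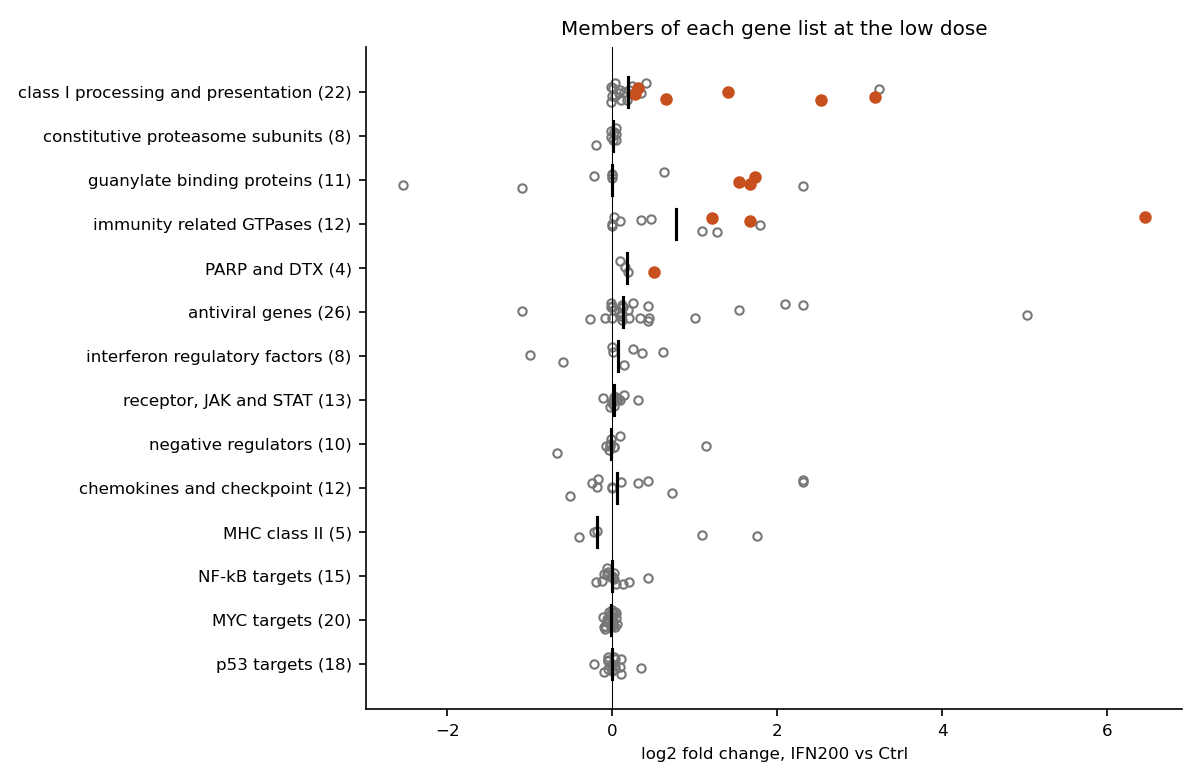
Fitted log2 fold change of IFN200 against Ctrl for each tested member of 14 gene lists (number tested in parentheses; open points not called, filled points called, black bars list medians; vertical jitter separates the points). Calls fall in the class I, guanylate binding, immunity related GTPase and Parp lists, and the points far from 0 in the other lists are genes with few reads, whose fitted values depend on the prior count.

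The remaining called gene, mt-Co1, is encoded by the mitochondrial genome and makes a subunit of cytochrome c oxidase. It had 44213 and 48192 reads in Ctrl and 72879 and 70754 in IFN200, a log2 fold change of 0.36 (SE 0.0646, edgeR adjusted p = 0.0232). After these values were seen, the other mitochondrial protein-coding genes were looked up. Of 13, 6 held 0 reads in every library and 7 were tested, and the 7 had log2 fold changes of 0.29 to 0.36, all with both IFN200 libraries above both controls (18.8% of all genes tested), 1 of them called. With the length and GC correction edgeR also called mt-Cytb (adjusted p = 0.0209), mt-Nd1 (0.0209), mt-Nd4 (0.0343) and mt-Nd5 (0.0343), and with only the groups compared the same 4 had adjusted p of 1.99e-07 to 1.24e-05. The share of counted reads on mitochondrial genes was 0.769% in both Ctrl libraries, 0.963% and 0.972% in IFN200, and 0.573% and 0.656% in IFN2000. The share was therefore above Ctrl at the low dose and below it at the high dose, and in the Oxali libraries it was 0.783% and 0.917%. The mt-Co1 call was lost with DESeq2 and when any 1 of the 4 libraries was left out.

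The 10 genes next in order of p that were higher in IFN200 were mt-Cytb, mt-Nd1, Irf1, mt-Nd4, mt-Nd5, Fam13a, Gm7964, Ifitm3, Psme1 and Tgtp1, with edgeR adjusted p from 0.0974 to 0.194. Fam13a had 1.72 and 2.08 CPM in Ctrl against 3.73 and 3.18 CPM in IFN200. Among genes with a mean level of at least 1 in log2 CPM, the 5 lower genes of smallest p were Ftl1, Mrps26, Tpgs1, Fmc1 and Rnpep. Ftl1, the ferritin light chain, had 285 and 292 CPM against 241 and 254 CPM, a log2 fold change of -0.22 (edgeR adjusted p = 0.101). None of these lower genes was among the 15 calls. Calls were gained under alternatives: DESeq2 called Ftl1 (adjusted p = 0.0316), edgeR with the length and GC correction called Ftl1 (adjusted p = 0.0343), Mrps26 (0.0302) and Fmc1 (0.0203), and edgeR with only the groups compared called Ftl1 (0.00218), Mrps26 (0.0294), Tpgs1 (0.0336) and Fmc1 (0.0336).

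Calls at the low dose depended on single libraries. Without IFN200 replicate 1, the library with heart muscle reads, 4 genes were called, namely Psmb9, Lgals3bp, Irgm2 and Tapbp; without IFN200 replicate 2 there were 25, which included 11 of the 15. Leaving out Ctrl replicate 1 left the same 4 genes, and leaving out Ctrl replicate 2 left Psmb9, Lgals3bp and Gbp7 of the 15. In each of these fits the lone library is assumed to vary as the other groups do. All 15 genes stayed higher in IFN200 in each of them: Psmb8 had a log2 fold change of 2.29 and Gbp2 of 1.23 without IFN200 replicate 1. Of the 25 heart muscle markers 4 were tested and 0 were called by edgeR or DESeq2, with 1 higher at an unadjusted p under 0.05. Of 11 skeletal muscle markers 4 were tested and 0 called, with 2 higher at an unadjusted p under 0.05. Of the T cell, macrophage, fibroblast and endothelial, and red cell and liver markers, 2, 2, 1 and 1 were tested, with 0 called and 0 at an unadjusted p under 0.05. As 0.114% of all genes tested were called higher by edgeR, 0 calls over so few marker genes say little. The part of these markers in the results was not tested. DESeq2's Wald test kept 12 of the 15 and lost Gbp3, Tgtp2 and mt-Co1.

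The next question was where the higher dose took the genes that had moved at the lower one. IFN2000 against IFN200 shares the IFN200 libraries with the first comparison, so a value that is high in an IFN200 library enters both, with opposite signs. Of all genes, 1493 were called higher (11.3%) and 1450 lower (11.0%) by edgeR, and of the 15 genes 14 were called higher and 1, mt-Co1, lower. Gbp2, Gbp3, Gbp7, Irgm2 and Igtp had larger fitted changes in this step than in the first, whereas the first-step value of Tgtp2 was fitted against 0 control reads. Igtp reached 51.3 and 52.4 CPM, a log2 fold change of 3.49 (SE 0.0873), against 1.21 in the first step. Gbp2 reached 30.6 and 30.8 CPM (3.46, SE 0.108, against 1.54). Irgm2 reached 32.0 and 31.6 CPM (3.00, SE 0.0961, against 1.66).

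Of the immunoproteasome genes, Psmb9 and Psmb8, read from few control counts, showed the other order on the fitted log2 scale. Psmb10 did not, and rose more in the step to IFN2000. Psmb9 reached 14.6 and 13.2 CPM in IFN2000, a step of 2.36 (SE 0.114) against 3.18 (SE 0.295) in the first, and Psmb8 reached 6.30 and 4.95 CPM, a step of 2.17 (SE 0.180) against 2.53 (SE 0.414). Lgals3bp reached 8.87 and 8.57 CPM, a step of 0.50 (SE 0.109) against 1.40. Parp14 reached 27.7 and 30.9 CPM, a step of 0.34 against 0.51, and Tap1 14.8 and 13.9 CPM, a step of 2.31 against 1.41. Whether the steps of a gene differ was not tested.

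Genes of the pathway that were not called at the low dose were called in the step. Irf1 reached 94.6 and 93.9 CPM (log2 fold change 1.07, edgeR adjusted p = 1.15e-11) and Psmb10 75.0 and 70.4 CPM (1.06, edgeR adjusted p = 1.27e-10). In the class I list 14 of 22 were called higher in the step and 0 lower, in the guanylate binding proteins 8 of 11, in the immunity related GTPases 8 of 12 and in the antiviral list 11 of 26, where 11.3% of all genes tested were called higher. B2m was not among them, at -0.003 (edgeR adjusted p = 0.967). The log2 ratio to Ctrl was related to transcript length across genes with Spearman rho of 0.15 and 0.07 in the IFN200 libraries and of -0.35 and -0.19 in the IFN2000 libraries, a description over genes, which are not independent; with length and GC content corrected for, the step called 1559 genes higher and 860 lower. Without the IFN2000 library that held T cell reads 1176 were called, and of the 15 genes again 14 were higher and 1 lower.

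The same dose was also given on top of oxaliplatin, in 4 libraries that the first comparison does not use. Combo200 against Oxali called 208 genes higher (1.58%), and 14 of the 15 genes were among them; mt-Co1 was not called (log2 fold change -0.16, edgeR adjusted p = 0.353). Psmb9 went from 3.04 and 3.44 CPM in Oxali to 39.2 and 39.7 CPM in Combo200, a log2 fold change of 3.61 (SE 0.0912, edgeR adjusted p = 2.89e-16). For Psmb8 the levels were 3.09 and 3.39 CPM against 22.2 and 23.04 CPM (2.80, SE 0.112). Gbp3 had 2.40 and 2.58 CPM against 45.7 and 46.2 CPM (4.21, SE 0.0835).

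**Figure D5:**
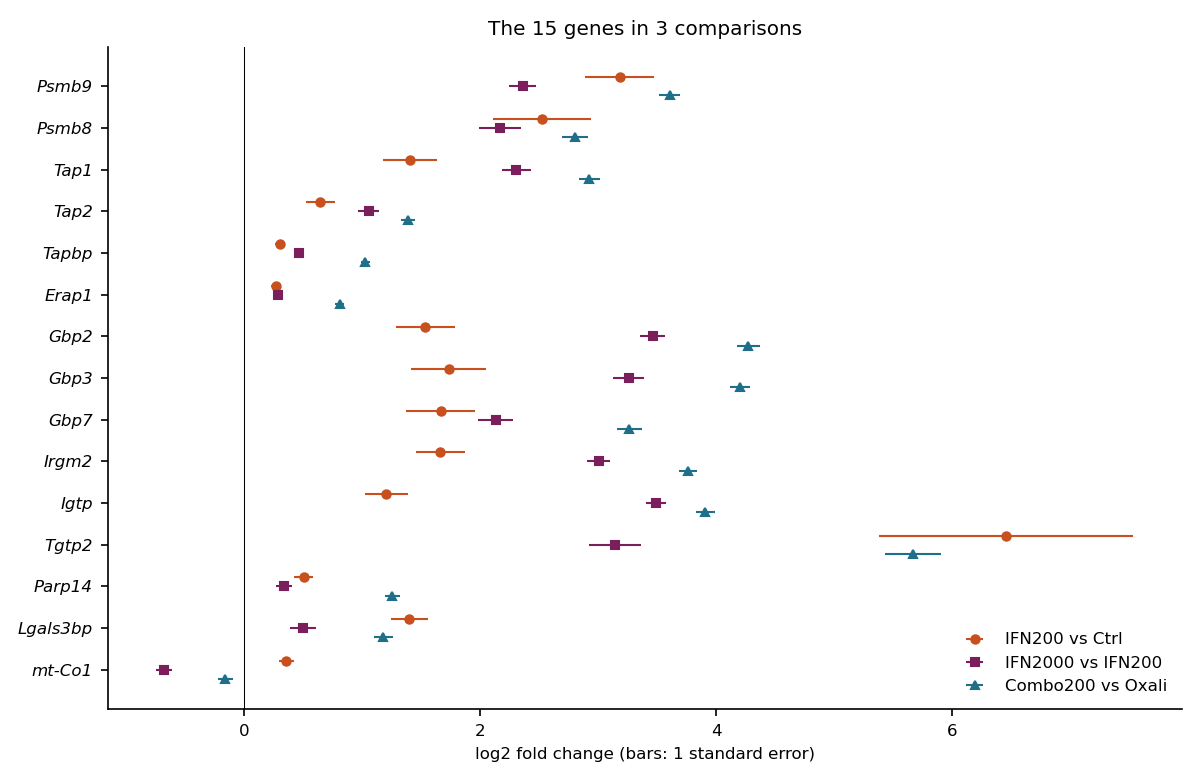
Log2 fold change with 1 standard error (horizontal bars) of the 15 called genes in IFN200 against Ctrl (circles), IFN2000 against IFN200 (squares) and Combo200 against Oxali (triangles). The Tgtp2 circle was fitted against 0 Ctrl reads, so its bar does not measure spread. All but mt-Co1 lie right of 0 in all 3 comparisons; for the GTPases Gbp2, Gbp3, Igtp and Irgm2 the circle is the lowest of the 3 symbols' values.

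The change at 200 pg with oxaliplatin was tested against the change without it as an interaction, which called 74 of all genes higher (0.562%) and 18 lower (0.137%), or 57 and 24 with upper-quartile scaling. Of the 15 genes, 9 had a larger change with oxaliplatin, 1 (mt-Co1) a smaller one, and 5 were not called. The 15 genes were picked from the IFN200 and Ctrl libraries, which also enter the interaction, with opposite sign. A value that is high in an IFN200 library thus favours a call in the first comparison and lowers the interaction, as may be so for mt-Co1. Igtp rose by 3.91 on the log2 scale with oxaliplatin and 1.21 without it, a difference of 2.703 (SE 0.241, edgeR adjusted p = 1.05e-06), and Tapbp by 1.03 and 0.31, a difference of 0.72 (SE 0.0548, edgeR adjusted p = 1.5e-07). Psmb9 changed by 3.61 and 3.18, and the difference of 0.42 had an SE of 0.449 and an edgeR adjusted p of 0.831. For Psmb8 the difference was 0.28 (SE 0.598), for Lgals3bp -0.22 (SE 0.181), for Gbp7 1.598 (SE 0.379, edgeR adjusted p = 0.0559) and for Tgtp2 -0.79 (SE 0.824). These SEs leave room for sizeable differences in Psmb9 and Psmb8, which were read from few control counts. Tgtp2 held 0 Ctrl reads and its fitted change depends on the prior count. Its SE therefore does not measure spread, and a sizeable difference stays possible.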

How the data were processed

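RNA of 12 Myc-CaP libraries was measured as gene counts. The authors aligned reads with STAR 2.7.3a to GRCm38 with GENCODE annotation and deposited raw read counts per gene symbol, which their methods credit to featureCounts. The submitters' processing notes also list RSEM 1.3.0, with no role given, and neither the strand setting nor the handling of reads that fit several genes is given in the sources used here, though the library kit marks strand. These deposited counts were tested with edgeR 4.0.16 in R 4.3.3: genes needed 10 counts in enough libraries and 15 in total (filterByExpr), TMM scaling was used, and glmQLFit and glmQLFTest fitted a mean for each of the 6 groups over all 12 libraries, without a replicate block. P-values were adjusted by Benjamini-Hochberg over the 13177 genes of each contrast. DESeq2 1.42.0 was an alternative. CPM are on the TMM scale. Positions, lengths and GC content came from GENCODE M21 (53559 of 55216 symbols found) and promoters from RefSeq. The script was tested on simulated counts.

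Named genes were all genes called, the next 10 higher genes by p, the 5 lower genes of smallest p with a mean log2 CPM of at least 1, and members of 21 lists. The samples compared, the lists and this rule were chosen with earlier results of these data known. Ctrl and IFN200 share the replicate numbers 1 and 2 in their titles. Nothing says that a number marks a shared culture or day, so no block was used. Oxali also carries 1 and 2, whereas IFN2000, Combo200 and Combo2000 carry 2 and 3. In IFN2000 against IFN200, Combo200 against Oxali and the interaction, replicate number is therefore partly mixed with group. Their parts cannot be fully told apart there. Alternatives were another scaling, DESeq2, other filters, only the groups compared, a replicate block, a length and GC correction, and leaving out each library. Results of a few genes are not reported here.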

Additional observations from a re-analysis of the deposited data

Results flagged for a closer look

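Of the 15 genes called at the low dose, 10 changed by a different amount when the same dose was given on top of oxaliplatin, by a test of the difference itself (the interaction term of the edgeR fit, Benjamini-Hochberg adjusted over all 13177 genes). The difference, change with oxaliplatin minus change without it on the log2 scale, was 2.74 for Gbp2 (adjusted p = 0.000131), 2.703 for Igtp (adjusted p = 1.05e-06), 2.47 for Gbp3 (adjusted p = 0.00718) and 2.10 for Irgm2 (adjusted p = 0.000218). Among the class I genes it was 1.52 for Tap1 (adjusted p = 0.0133), 0.74 for Tap2 (adjusted p = 0.0145), 0.72 for Tapbp (adjusted p = 1.5e-07) and 0.54 for Erap1 (adjusted p = 7.18e-06). Parp14 differed by 0.75 (adjusted p = 0.000286). mt-Co1 went the other way, with -0.52 (adjusted p = 0.00718). The 15 genes were picked from the IFN200 and Ctrl libraries that the difference subtracts, so a high value in an IFN200 library lowers it. Over all genes tested, 0.562% were called higher and 0.137% lower in the interaction test. Of the 15 genes, 9 were called higher and 1 lower in this test, and over the alternatives 6 to 10 were called higher and 0 to 1 lower. The lowest value, 6, was without Ctrl replicate 2, and without IFN200 replicate 1, the library with heart muscle reads, it was 7.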

How the results depend on the processing

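All 15 genes called in IFN200 against Ctrl kept their direction in each of the 13 alternatives that gave them a value, and Psmb9 and Lgals3bp were called in all 13. Against 15 calls, 102 were made with no filter on low counts (63 higher, 39 lower), 48 with only the groups compared in the fit (34 and 14), 33 with the length and GC correction and 27 with that correction and the replicate block. Leaving out 1 library gave 4 to 25 calls: 4 without either Ctrl library or without IFN200 replicate 1, and 25 without IFN200 replicate 2. In IFN2000 against IFN200, with 2943 calls, DESeq2 made 1878, the replicate block 1588 and the block with the correction 1539, and leaving out 1 library gave 1121 (without IFN200 replicate 1) to 3478. Combo200 against Oxali, with 241 calls, had 372 with no filter and 142 with the replicate block, and 123 (without Combo200 replicate 3) to 198 with 1 library left out. The interaction, with 92 calls, had 262 with no filter, 172 with only the groups compared and 48 with the replicate block, and 33 (without Combo200 replicate 3) to 135 with 1 library left out. The causes were not tested, apart from the fewer libraries or different genes that each alternative is built on.

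The same-numbered Ctrl and IFN200 libraries deviated together with r = 0.13 over 8906 genes, over only 2 pairs, so the numbers were not read as pairing. The replicate block gave 11 calls, 10 of them among the 15, and lost Tap2, Gbp3, Gbp7, Tgtp2 and mt-Co1 (adjusted p 0.0547 to 0.0847). Over the alternatives the median of the class I list ranged from 0.15 to 0.22, of the immunity related GTPases from 0.51 to 1.21, of the guanylate binding proteins from 0.00 to 1.67, of the antiviral genes from 0.08 to 0.22, of the receptor, JAK and STAT genes from 0.02 to 0.05 and of the interferon regulatory factors from 0.00 to 0.14. The highest median of the guanylate binding proteins, with only the groups compared, covers 3 tested members, against 11 in the main fit. Depth limits the genes with few control reads, Psmb8, Psmb9, Gbp3, Gbp7 and Tgtp2 among those called.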
